A study of Mus musculus with 5 samples.

Results

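Cd22, Cd72, Cr2, Fcrla, Fcrl1, Fcgr2b and Cd38 are 7 genes that encode coreceptors of the B-cell receptor, Fc receptors or related proteins. They are 7 of 21521 protein-coding genes considered here and were listed by symbol, not by a measured value. All 7 matched the RefSeq gene table of the mouse build GRCm38 by their own symbol. The measurement was the binding of EBF1, a transcription factor that commits progenitors to the B lineage, by chromatin immunoprecipitation and sequencing (ChIP-seq) in pro-B cells, an early stage of the B lineage. The library used here came from Ebf1-/- fetal liver cells transduced with wild-type EBF1 and precipitated with anti-EBF1. The series labels describe 5 libraries in 5 groups, all from transduced Ebf1-/- fetal liver cells. The other 4 were EBF1 ChIP with the EBF1 form YmA, ChIP of the chromatin remodelling ATPase BRG1 with YmA, and an input for each antibody, and they were not analysed here. The sources used here do not name the promoter that drove the transduced EBF1 or the number of cultures behind the library.

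The deposited list held 7494 sites of 300 bp on 20 chromosomes, each with a class name from the authors, YmA-dep, YmA-ind or CTD-ind, and with no height or score. With 1 library there is no replicate and no test between conditions, and the read depth behind a site is unknown, so a gene without a listed site cannot be read as unbound. Genes known as EBF1 targets or B-lineage regulators served to check the label only. Cd79a, Cd79b, Vpreb1, Igll1 and Pax5 each had a site, 5 of 5, against 19.6% of all coding genes by the assignment given next. Each site was represented by its centre. Where that point fell inside coding genes the site went to the shortest of them, and elsewhere to the coding gene at the smallest distance, up to 100 kb.

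The B-cell receptor is tuned by neighbouring membrane proteins. Inhibitory coreceptors such as CD22, CD72 and the IgG receptor encoded by Fcgr2b carry short tyrosine motifs (ITIMs) which, once phosphorylated by kinases such as LYN, recruit phosphatases that dampen the signal. The complement receptor encoded by Cr2 (CD21) works in the opposite direction and lowers the amount of antigen needed for a response. Fcrl1 encodes an activating member of the Fc receptor-like family, Fcrla a related protein kept inside the B cell, and Cd38 a surface enzyme that consumes NAD.

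Cd22 carried its site directly on the start listed for it in RefSeq. The site, of class CTD-ind, lay at chr7:30878926-30879225 and was centred 47 bp before the start that the RefSeq promoter table lists for Cd22 on the minus strand, at position 30879028. It covered 197 bases before that start and 102 bases after it. By the gene span the same site counted as inside Cd22, 1.27 kb from its upstream end and 13.7 kb from its downstream end, because the span (30865404 to 30880342) reaches 1314 bp further upstream than the listed start. The 250 bases before the start are shown because they hold the centre of the site and, in capitals, a full match to the EBF recognition palindrome, searched here as CCCNNGGG with a T before it and an A after it (the extended motif) (strand of transcription, 5′ to 3′, RefSeq, GRCm38.p6, chr7:30879029-30879278, minus strand).
Cd22: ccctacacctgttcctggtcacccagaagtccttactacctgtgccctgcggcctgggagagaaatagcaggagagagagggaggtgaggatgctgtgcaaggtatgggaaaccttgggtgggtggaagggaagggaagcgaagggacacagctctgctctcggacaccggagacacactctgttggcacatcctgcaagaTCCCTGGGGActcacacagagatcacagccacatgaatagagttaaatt
The match ran from 49 to 40 bases before the start, chr7:30879068-30879077, and its middle was 3 bp from the centre of the site.

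**Figure D1:**
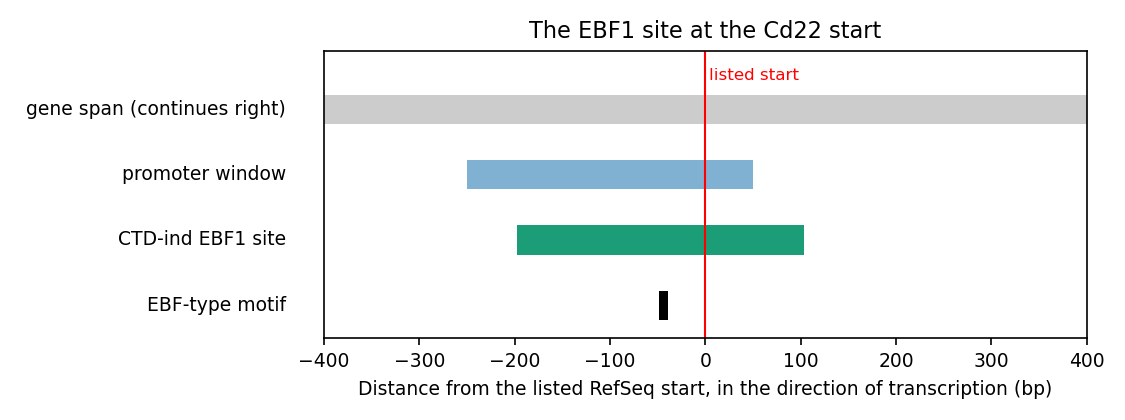
Bars show the Cd22 gene span, the promoter window of the RefSeq table, the CTD-ind EBF1 site and the motif match against the distance from the listed start in bp, upstream to the left. The motif sits 3 bp from the middle of the site, which spans the start with 197 bases before it.

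Such a match was rare among promoters. Both strands were searched for the extended motif in 21045 promoter windows of coding genes, each from 250 bases before to 50 after a start, and 0.965% held it. A gene with several listed starts has several windows, which can overlap. Of these windows 2.75% were overlapped by a site, as that of Cd22 was over 247 bases, and 1.8% held the centre of one. Of the 378 windows with a site centre, 60 (15.9%) had the extended motif, against 143 of 20667 windows (0.692%) without a site centre. In these 60 windows the motif lay at a median of 12.5 bp from the centre of the site, and in 28 of them within 10 bp. Among the 7 genes only the Cd22 window held it. The shorter core CCCNNGGG, which is contained in the extended motif, was present in 15.8% of all windows and again in Cd22 alone of the 7, at the same place. Of the 378 windows with a site centre, 218 (57.7%) held this core, against 15% of the windows without a site centre. The windows of the other 6 genes held no centre of a site, and the absence of these letters there says nothing more about EBF1 at those genes.

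With Cd22, 4 of the 7 genes (57.1%) had an assigned site, against 19.6% of all coding genes. The 4 were Cd22, Cd72, Cr2 and Fcrla, with 5 sites between them. Fcrl1, Fcgr2b and Cd38 had none by gene spans. When only sites inside a gene or within 10 kb of it counted, 3 of the 7 had 1 or more, against 22.3% of all coding genes. The genes had been chosen with earlier results of these data known, so these counts describe the 7 genes and were not tested.

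**Figure D2:**
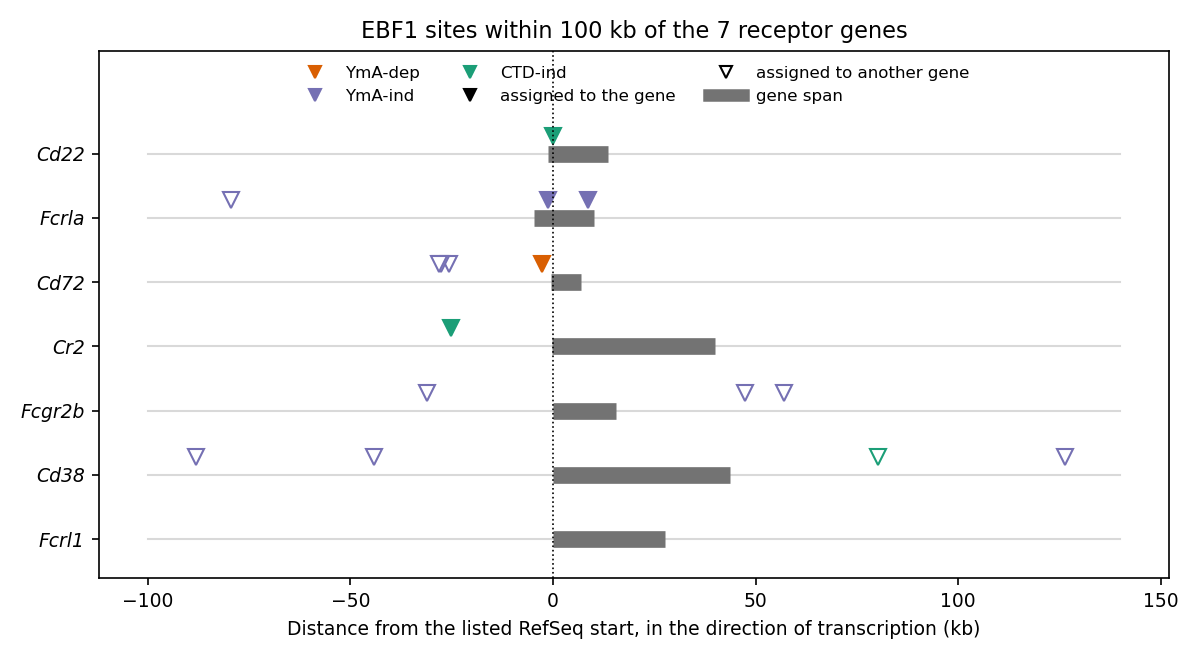
Each row is a gene, with its span as a grey bar and EBF1 sites as triangles, plotted by distance in kb from the listed RefSeq start with upstream to the left, for all sites within 100 kb of the span. Filled triangles are sites assigned to the gene and open ones sites assigned to another gene, with colours for the authors' classes. Cd22, Fcrla and Cd72 have a site within 5 kb of the start and Fcrl1 has no site in view.

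Cd72, the lectin-type inhibitory coreceptor that binds the semaphorin SEMA4D, had a YmA-dep site upstream. It lay at chr4:43457119-43457418, outside the span (43447724 to 43455102, minus strand), 2.17 kb from the upstream end, 9.54 kb from the downstream end and 2.64 kb before the listed start. This was the only YmA-dep site within 100 kb of any of the 7 genes. Coding genes with an assigned YmA-dep site made up 3.26% of all. A group of 3 YmA-ind sites stood farther upstream, 25.3, 27.1 and 27.8 kb from the Cd72 span. They were nearer to Sit1, which encodes a transmembrane adaptor of lymphocytes, and were assigned to it. The first of the 3 was centred 1.69 kb outside Sit1 and the others inside it. Fam166b, the coding neighbour on the other side, had no assigned site.

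By gene spans, Fcrla was the only one of the 7 with more than 1 assigned site, and both were YmA-ind. With assignment to the nearest listed start, Fcrla had 1 site and Cd38 had 2. Coding genes with 2 or more assigned sites made up 6.78% of all, and those with a YmA-ind site 12.2%. The upstream site, chr1:170928574-170928873, was centred 1.14 kb before the listed start and still inside the span (170917594 to 170932216, minus strand), which reaches 4633 bp further upstream. It lay 3.49 kb from the upstream end of the span and 11.1 kb from the downstream end. The other, chr1:170918855-170919154, lay 8.58 kb after the start and 1.41 kb from the downstream end, 13.2 kb from the upstream end. It was also 5.17 kb from Fcrlb, the neighbouring paralog, and 6063 bp from the listed start of Fcrlb, so nearer to that start than to the Fcrla start. By gene spans Fcrlb had no assigned site. Whether either site falls in an exon could not be read from the gene table.

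Fcrla and Fcgr2b share a stretch of chromosome 1 with other Fc receptor genes. From Fcrlb to Fcgr3 (170906715 to 171065915, 159 kb) it holds 6 coding genes and held 3 sites, all YmA-ind. Fcgr2b (170960558 to 170976071, minus strand), the inhibitory IgG receptor gene, sits between these sites with none inside or within 10 kb, and neither did Gm39701, the coding gene between it and Fcrla, have an assigned site. The upstream Fcrla site was 31.8 kb from its downstream end. The third site, chr1:171006982-171007281, was centred 31.1 kb before the Fcgr2b start and 11.8 kb from Fcgr4, which encodes an activating IgG receptor in mouse, and it was assigned to Fcgr4. The sequence likeness of Fcgr2b and Fcgr3, and of Fcrla and Fcrlb, can make the placing of reads less certain here, and the sources used here do not say how the authors treated reads with several places.

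**Figure D3:**
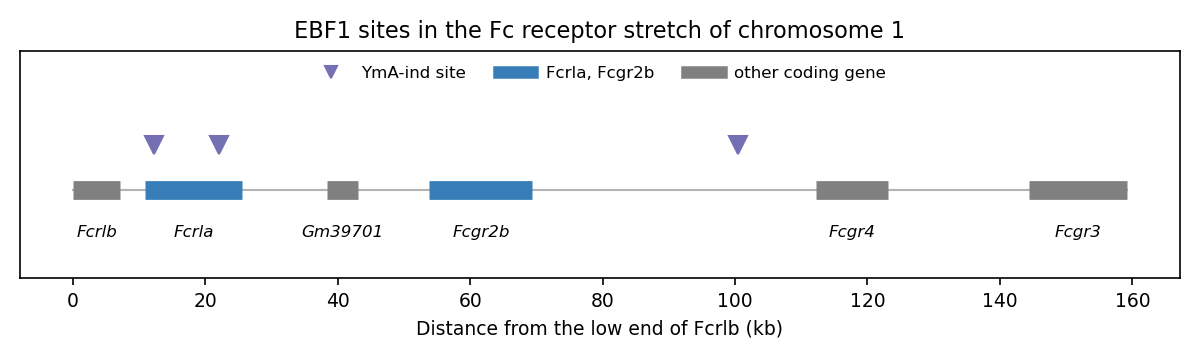
Coding genes (bars) and EBF1 sites (triangles) from Fcrlb to Fcgr3 are plotted by distance in kb from the low end of Fcrlb. The 3 sites are YmA-ind, 2 of them over Fcrla and 1 between Fcgr2b and Fcgr4, and none over Fcgr2b.

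Cr2 had a single CTD-ind site, far upstream. It lay at chr1:195201684-195201983, outside the span (195136811 to 195176880, minus strand), 25.0 kb from the upstream end, 65.0 kb from the downstream end and 25.1 kb before the listed start. Coding genes with an assigned CTD-ind site made up 9.32% of all. The next site was 524 kb away, a distance reached or passed by 3.55% of all 7494 sites, whose median distance to the next site was 23.3 kb. How much of the chromosome lies beyond the Cr2 site was not examined, so this distance may rest on a single side. No coding gene was listed beyond Cr2 on its upstream side, where the site lay, so none there could receive it. A pseudogene lay nearer to the site than Cr2, and when all annotated genes could receive sites Cr2 had none. Cr1l, the neighbour of Cr2 and a gene of a complement regulator, had no assigned site. The Cd22 site was also apart from others, with 172 kb to the next (12.2% of sites were as far or farther). For the Cd72 site this distance was 23.1 kb, and the Fcrla sites were 9.72 kb from each other.

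Cd38 had 4 sites within 100 kb of its span but none assigned to it by gene spans. With assignment to the nearest listed start, among coding genes that have one, it had 2. Over all coding genes the median number in such a window was 1, and 13.5% had 4 or more. On the upstream side of Cd38 (chr5:43868809-43912374, plus strand) a YmA-ind site lay 44.1 kb before the start, inside Bst1, the paralog of Cd38 that encodes a related enzyme. Another YmA-ind site lay 88.1 kb before the start, inside Fbxl5. These were the 2 sites that went to Cd38 by nearest listed start. Bst1 had no listed start and so could not receive its own site there. On the downstream side a CTD-ind site, chr5:43948753-43949052, stood between genes, 36.5 kb from the end of Cd38 and 30.0 kb from Fgfbp1, to which it was assigned. A YmA-ind site 82.8 kb from the end of Cd38 lay inside Prom1.

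Fcrl1 had no site within 100 kb, as did 46.6% of all coding genes. Its nearest site, of class CTD-ind, lay 166 kb after the listed start of Fcrl1 (chr3:87376353-87403967, plus strand) and was assigned to Etv3. Its neighbours Cd5l and Fcrl5 had no assigned site either.

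Measured from the listed start, the 7 genes covered a wide range of distances to the nearest site of any class. The order was Cd22 (0.047 kb), Fcrla (1.14 kb), Cd72 (2.64 kb), Cr2 (25.1 kb), Fcgr2b (31.1 kb), Cd38 (44.1 kb) and Fcrl1 (166 kb). Of the 17274 coding genes with a listed start, 0.643% had a site as near as Cd22 or nearer, 5.89% as near as Fcrla and 7.88% as near as Cd72. The shares were 23.8% for Cr2, 27.1% for Fcgr2b, 33.1% for Cd38 and 60.4% for Fcrl1, and the median over these coding genes was 102 kb. Within 5 kb of the start, 3 of the 7 had a site, against 9.98% of coding genes, and within 1 kb 1 of the 7, against 5.73%. The nearest site lay before the start in all of the 7 but Fcrl1. Over all coding genes with a listed start it lay before the start in 49.4%.

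**Figure D4:**
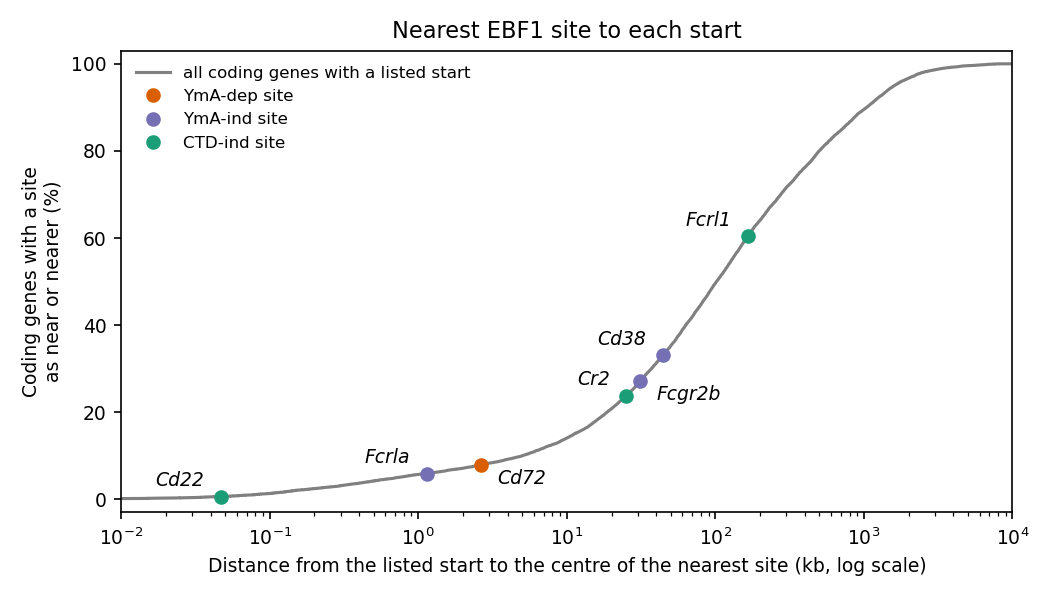
The grey curve gives the percentage of coding genes whose nearest EBF1 site is as near to a listed start as the distance on the log axis, in kb. Points mark the 7 genes, coloured by the class of their nearest site, from Cd22 at 0.047 kb to Fcrl1 at 166 kb.

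The classes of the sites followed no single pattern across the 7 genes. The 5 assigned sites were 2 CTD-ind (Cd22, Cr2), 2 YmA-ind (both Fcrla) and 1 YmA-dep (Cd72), while over all sites 34.0% were CTD-ind, 54.1% YmA-ind and 11.9% YmA-dep. Within 100 kb of the 7 spans lay 13 different sites, of which 3 were CTD-ind, 9 YmA-ind and 1 YmA-dep. The CTD-ind site at the Cd22 start belonged to the class most often found near starts. Of 2487 CTD-ind sites 26.3% were centred within 1 kb of a listed start, against 7.23% of 3944 YmA-ind and 2.2% of 865 YmA-dep sites. Sites on a chromosome without listed starts were left out of these shares and of the median that follows. The other CTD-ind site, at Cr2, was 25.1 kb from a listed start, against a median of 12.4 kb for CTD-ind sites.

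Among 44 related genes, grouped in 6 lists by role, 13 (29.5%) had an assigned site, against 19.6% of all coding genes. Of 5 complement receptors, regulators and partner genes, 1 had one: Ifitm1 had a YmA-ind site 86 bp before a listed start (chr7:140967841-140968140). Cd81, Cr1l, Cd55 and Cd46 had none. Cd22 belongs to the sialic acid binding lectins (Siglecs), and of the 8 others in that list only Siglec15 had a site, of class YmA-ind and inside the gene. Siglecg, an inhibitory Siglec of B cells, and Mag, the coding neighbour of Cd22 18.8 kb away, had none. Ffar1, the neighbour on the other side, also had none.

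Of 14 further Fc receptor and Fc receptor-like genes, 2 had a site, both YmA-ind. These were Fcgr4, at 11.8 kb, and Fcer2a, the low-affinity IgE receptor gene (CD23), with a site inside the gene 4.78 kb after the start. The share in this list, 14.3%, was below the 19.6% of all coding genes, and Fcrl5, Fcrlb and Fcgr3 were among those without an assigned site.

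In the list of other inhibitory receptors, drawn up here as carrying ITIMs, 4 of 10 genes (40%) had sites, against 19.6% of all coding genes. Whether each of the 10 carries a full ITIM was not checked, so the list name is approximate. Inside or within 10 kb, 3 of the 10 had a site, against 22.3% of all coding genes. Ceacam1 had a CTD-ind site 235 bp before its start (chr7:25477711-25478010), Cd5 and Pecam1 each had a YmA-ind site inside the gene, and Pdcd1 had a YmA-ind site at 88.1 kb. The enzymes that act at ITIMs had sites at 3 of 5 genes (60%), beside the same 19.6% of all coding genes. Lyn, the kinase, had a YmA-dep and a CTD-ind site inside the gene. Ptpn6, which encodes the phosphatase SHP-1 recruited by CD22 and CD72, had a YmA-ind site centred 13 bp before its start (chr6:124738573-124738872). Inpp5d, which encodes SHIP-1, the lipid phosphatase recruited by the Fcgr2b product, had 5 sites inside the gene, 2 CTD-ind and 3 YmA-ind, although Fcgr2b itself had none. Ptpn11 and Inppl1 had no site. Sema4d, the ligand gene for CD72, had 6 sites, 5 YmA-ind and 1 CTD-ind, of which 5 lay inside the gene. With the site inside Bst1, both genes of the list of a ligand and a paralog thus had a site. Lyn, Inpp5d and Sema4d had 2 or more sites, as did 6.78% of all coding genes, and gene length was not taken into account.

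Ceacam1, Ifitm1 and Ptpn6 had a site centred in the promoter window, as Cd22 had, and 60 bases around or next to the centre are shown for comparison with it, with CCCNNGGG matches in capitals (strand of transcription, 5′ to 3′, RefSeq, GRCm38.p6; Ceacam1 chr7:25477816-25477875, minus strand; Ifitm1 chr7:140967960-140968019, plus strand; Ptpn6 chr6:124738710-124738769, minus strand).
Ceacam1: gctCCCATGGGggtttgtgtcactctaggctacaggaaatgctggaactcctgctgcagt
Ifitm1: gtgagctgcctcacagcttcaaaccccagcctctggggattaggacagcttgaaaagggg
Ptpn6: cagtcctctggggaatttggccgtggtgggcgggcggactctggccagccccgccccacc
The Ceacam1 match lay 8 bp from the centre of its site, and a match to the extended motif stood outside that site, 224 bp from its centre. The windows of Ifitm1 and Ptpn6 held neither motif. The parts of these sites beyond the promoter windows were not read.

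**Figure D5:**
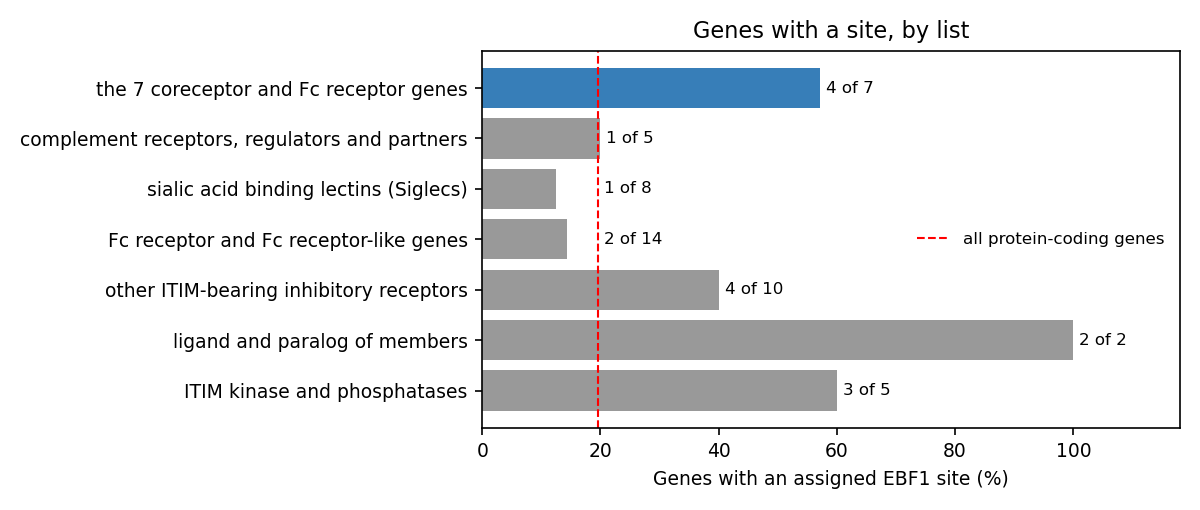
Bars give the percentage of genes with an assigned EBF1 site in the 7 coreceptor and Fc receptor genes and in 6 lists of related genes, with the counts beside them and the 19.6% of all coding genes as a dashed line. The 7 genes stand at 57.1% and the further Fc receptor genes at 14.3%.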

How the data were processed

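The deposited file gives the position, in bp, and a text class of each EBF1 site of 1 library, per the file headers. Per the submitters' processing notes, Bowtie2, SAMtools and deepTools were used on GRCm38 (mm10). The sources used here do not give the peak caller and threshold, the origin of the 300 bp width, or the making and meaning of the classes. Genes came from the RefSeq table of GRCm38, without 345 genes listed out of order that belong to other scaffolds, which left 21521 coding genes. Starts, strands and promoter sequences came from the RefSeq promoter table (21045 windows, 17274 coding genes). Positions are 1-based. Sites were assigned and counted with Python 3.11.15, pandas 2.3.3 and NumPy 2.4.6, and the assignment was tested on planted sites. Genes and lists were chosen with earlier results of these data known, so no test was run and shares stand beside those of all coding genes. The rule for named genes took the 7 genes, the coding genes next to them and related genes with a site. Further related genes that lacked a site were picked for naming with their counts known. The result for 1 gene first placed in these lists is not reported here.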

Additional observations from a re-analysis of the deposited data

How the results depend on the processing

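No paired analysis was possible because each group has 1 library. Of 105 alternative values for 14 results, 95 stayed within 1.5 times the main count. These values overlap, since the counts per gene enter the totals and the class counts, and Fcrl1 and Fcgr2b had no site in any run. The 95 is therefore not a measure of how stable the results are. Cd22 and Cd72 kept 1 site each under each alternative run. The CTD-ind sites of the 7 genes became 1 with a limit of 10 kb or 20 kb, and with sites inside or within 10 kb of any gene. Those limits removed the Cr2 site by construction. With all annotated genes as rivals the number was also 1, because the nearer pseudogene took the Cr2 site. Genes with a site then numbered 3 of 7. Assignment to the nearest listed start, chosen after the data were seen, gave Cd38 2 sites and Fcrla 1 and so 5 of 7 genes with a site. The share of all coding genes with a site was not counted under that rule, so the 5 of 7 has no background beside it. Only the 17274 coding genes with a listed start could receive sites there. Related genes with a site ranged from 11 to 13. Stricter thresholds were not run because the list has no score.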
